A study of Mus musculus with 35 samples.

Results

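The replication-dependent histone genes encode the linker histone H1 and the core histones H2A, H2B, H3 and H4 that package newly made DNA. They were taken as the rows of the expression table whose name begins with Hist1h, Hist2h, Hist3h or Hist4h, which gave 67 of 26127 rows. There were 6 H1, 19 H2A, 18 H2B, 11 H3 and 13 H4 genes, and 61 of the 67 had 1 exon. On mouse build NCBIM37, 55 lay on chromosome 13, 9 on chromosome 3, 2 on chromosome 11 and 1 on chromosome 6.

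RNA came from mouse embryonic stem cells (ESCs), which the labels give as cell type ESC on the background strain E14. The methods instead give C57BL/6 as the strain of the Dnmt1 loxP line, so the labels and the methods differ. WT and Dnmt1 KO cells all carried Dnmt1 alleles flanked by loxP sites, and Cre recombination induced with tamoxifen removed Dnmt1 in the KO. Per the methods, the cells grew in serum and LIF, with or without feeder cells. There were WT libraries, called control in the sample titles, and Dnmt1 KO libraries. Both were labelled with days 0, 1, 3, 6, 9, 11, 17 and 25, with 2 libraries in each group and 3 at day 1. Neither the titles nor the methods say whether the controls received tamoxifen. Effects of tamoxifen or Cre therefore cannot be told apart from those of Dnmt1 loss in the KO minus WT differences. A single further library is of Dicer KO cells. The methods derive Dicer KO cells from the same Dnmt1 loxP line by CRISPR/Cas9 and single-cell colonies, so this library stands for 1 clone. The series text calls the libraries of a group biological replicates but does not say whether they came from separate cultures. The p-values rest on 1 spread per gene, pooled over the 32 libraries fitted, and not on the spread of the groups compared. A group whose libraries lie far apart therefore gets the same SE as one whose libraries lie close.

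Replication-dependent histone mRNAs are made as cells enter S phase, when DNA is copied, and are degraded when S phase ends. They are the main class of animal mRNAs that end without a poly(A) tail. A stem-loop shortly after the stop codon is bound by SLBP, the stem-loop binding protein, and directs cleavage together with the U7 particle. The libraries were made from total RNA depleted of ribosomal RNA, a preparation that also keeps transcripts without poly(A).

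The stem-loop, the feature that sets these mRNAs apart, was looked for in the 150 bases after each annotated stop codon of NCBIM37 as the letters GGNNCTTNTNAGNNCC, on the coding strand and with 6 paired bases in the stem. It was found for 60 of the 67 genes. Over all 21964 genes with an annotated stop codon, 62 (0.282%) held it, and the other 2 were H2afx, the variant that marks DNA damage, and 1700014N06Rik. The form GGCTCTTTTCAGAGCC was found in 36 genes, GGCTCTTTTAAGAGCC in 9 and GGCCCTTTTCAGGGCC in 8. The genes without a match in this window were Hist2h2be, Hist2h2bb, Hist1h2an, Hist1h2bp, Hist1h2bq, Hist1h2br and Hist1h2al. The gene of each class with the highest level at WT day 0, and 2 genes of restricted expression described further on, are shown 5′ to 3′ with the stem-loop in capitals and 5 flanking bases on each side.
Hist1h1a (H1): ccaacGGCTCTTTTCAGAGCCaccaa
Hist1h2ak (H2A): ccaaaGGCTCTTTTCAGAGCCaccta
Hist1h2bm (H2B): acaaaGGCTCTTTTCAGAGCCactaa
Hist1h3e (H3): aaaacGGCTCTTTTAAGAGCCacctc
Hist1h4k (H4): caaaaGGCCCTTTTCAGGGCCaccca
Hist1h1t (H1): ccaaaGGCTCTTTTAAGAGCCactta
Hist1h2aa (H2A): aaaaaGGCTCTTTTCAGAGCCacctt
The genes of classes H1, H2A and H2B shown share 1 form of the stem-loop apart from Hist1h1t, which has the form of Hist1h3e, and Hist1h4k has another. In Hist1h4k the 16 letters lie at chr13:21842019-21842034 on the minus strand, 29 bases after the stop codon.

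Promoter letters were counted in RefSeq promoters of GRCm38.p6 (250 bases before to 50 after the start), in which 60 of the 67 genes were matched by synonym. The letters TATAAA, on either strand, were in 58.3% of the histone promoters and in 14.2% of all 27025 promoters. CCAAT was in every matched H1, H2A, H2B and H3 promoter and in 25% of the H4 promoters, against 37.9% of all promoters. The octamer ATTTGCAT, a site of OCT family factors, was in 7 of 17 H2A and 6 of 16 H2B promoters and in no H1, H3 or H4 promoter, against 1.75% of all promoters. These matches describe letters and not binding.

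Values are RPKM, reads scaled to exon length and to the reads of the library. Between 5.20 and 18.0 mega-reads per library fell in exons, of which 0.566% to 1.35% (45194 to 235150 reads) came from the 67 histone genes. The exon-read share split the libraries into 2 sets. It was 20.7% to 22.4% in 20 libraries (days 0, 3, 6 and 9 and the first 2 pairs of day 1) and 44.7% to 49.9% in 15 libraries (the third pair of day 1, days 11, 17 and 25, and Dicer KO), and KO was compared with WT, and days with each other, only within a set. Dnmt1, which maintains DNA methylation, had 18.3 and 18.4 RPKM in WT against 18.7 and 18.5 RPKM in KO at day 0, and its KO libraries lay between 2.58 and 8.13 RPKM at days 1, 3, 9, 11, 17 and 25, each below every WT library of that day. At day 6 it went against the labels, with 3.22 and 3.40 RPKM in the libraries labelled WT and 20.2 and 20.4 RPKM in those labelled Dnmt1 KO, so day 6 is given by its labels only and kept apart. The ESC markers Pou5f1 and Nanog were present in every library (at least 45.5 and 15.1 RPKM). The 13 fibroblast markers summed to 10.2 to 41.9 RPKM in the first 20 libraries and to 2.46 to 14.4 RPKM in the WT and KO libraries of the other set, where Col1a1 was at most 0.112 RPKM.

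Levels differed between the classes, which also differ in their number of genes. Summed over its genes, the mean at WT day 0 was 1365 RPKM for H4, 709 for H2B, 587 for H3, 502 for H1 and 384 for H2A. The highest single genes came in another order. At WT day 0 the highest gene of each class was Hist1h4k with 266 and 272 RPKM, Hist1h1a with 214 and 203 RPKM, Hist1h3e with 147 and 149.6 RPKM, Hist1h2bm with 106 and 111 RPKM and Hist1h2ak with 74.0 and 66.96 RPKM. Neighbours in this order of the 5 genes did not overlap between the 2 libraries. Of the 67 genes, 63 exceeded 1 RPKM in at least 2 of the 32 libraries fitted (the third pair of day 1 and Dicer KO left out) and were tested among 11594 genes. The 4 that did not pass were Hist2h2be, Hist2h2aa1, Hist1h2ap and Hist1h2al.

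Many histone genes share long stretches of sequence. Of the windows of 100 bases (the read length) in their exons, at least 50% occurred once in the genome for 45 of the 67 genes, all of them for 10 genes, and none for Hist2h2aa1, Hist2h2aa2, Hist1h2ao, Hist1h2ap, Hist1h2bq and Hist1h2br. The authors discarded reads below a mapping-quality minimum, and values of genes under 50% are uncertain throughout. Of the genes given with values, this also holds for Hist1h4k (35.7%), Hist1h2bl (37.9%), Hist1h2bk (29.7%), Hist1h3b (43.4%), Hist2h3c1 (46.99%), Hist1h2ad (36.4%) and Hist1h4n (10.9%). Hist2h2aa2 had 27.6 RPKM in 1 WT library of day 11 and was listed at 0 in the other. It likewise had 0.213 and 12.8 RPKM in the KO libraries of day 0 and 0.144 and 13.1 RPKM in the WT libraries of day 3. By contrast Hist1h2ao, also without unique windows, had 44.6 and 45.1 RPKM at WT day 0. Hist1h4m, with 11.9% unique windows, reached 35.2 RPKM in 1 KO library of day 11 and 31.3 RPKM in 1 WT library of that day, and had at most 0.459 RPKM in every other library. Hist2h2aa1 also overlaps Hist2h3c1 on the same strand.

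Summed over the 67 genes, histone mRNA differed between KO and WT in a direction that depended on the day. In the libraries of low exon share the sum was 3541 and 3554 RPKM in WT against 3469 and 3552 RPKM in KO at day 0. At day 1 it was 3607 and 3492 RPKM in WT against 3480 and 3650 RPKM in KO, so the genotypes overlapped on both days. By day 3 the WT libraries had 3559 and 4082 RPKM and the KO libraries 3042 and 2932 RPKM, a ratio of means of 0.782. At day 9 WT had 3341 and 3173 RPKM and KO 3039 and 3169 RPKM, and both KO libraries lay below both WT libraries by a small margin.

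In the libraries of high exon share the third pair of day 1 had 8355 RPKM in WT against 7586 RPKM in KO. At day 11 WT had 9407 and 9504 RPKM and KO 8784 and 5815 RPKM, so 1 KO library stood far below the other. Day 17 gave 10713 and 8739 RPKM in WT against 6758 and 7059 RPKM in KO, a ratio of means of 0.710. The order turned at day 25, where WT had 4856 and 5383 RPKM and KO 7992 and 7894 RPKM, a ratio of means of 1.55. WT at day 25 was the lowest of the WT groups of this set, and both KO libraries of day 25 lay below every WT library of days 1, 11 and 17 in it.

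**Figure D1:**
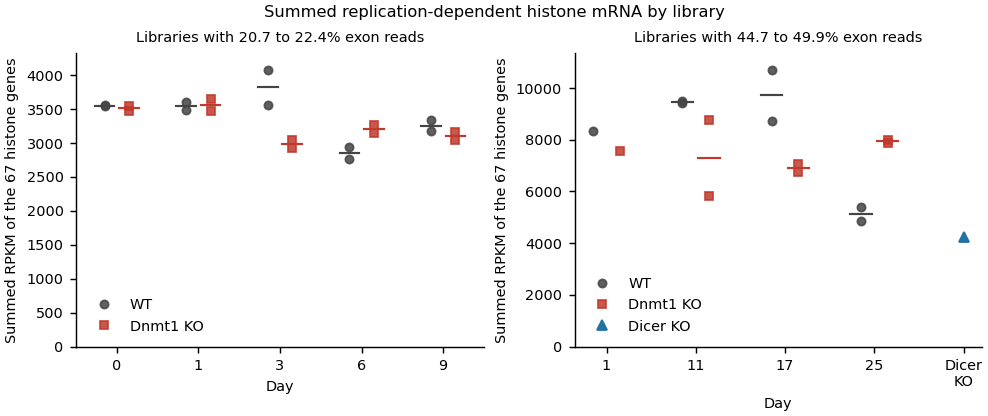
Summed RPKM of the 67 replication-dependent histone genes in each library (points) by day, in the 20 libraries of low (left) and the 15 of high (right) exon-read share, with horizontal lines at the mean of 2 libraries. KO (red squares) lies below WT (grey circles) at days 3, 11 and 17 and above it at day 25, where WT has 4856 and 5383 RPKM and KO 7992 and 7894 RPKM, and the Dicer KO library (triangle) is at 4248 RPKM.

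In these sums every class went in the same direction at each of days 3, 11, 17 and 25, but not to the same extent. At day 3 the ratio of the KO to the WT mean was 0.801 for H1, 0.773 for H2A, 0.754 for H2B, 0.790 for H3 and 0.788 for H4. At day 11 they were 0.714 for H1, 0.737 for H2A, 0.721 for H2B, 0.754 for H3 and 0.838 for H4. The H4 sums overlapped on that day, with 3501 and 3774 RPKM in WT against 3698 and 2397 RPKM in KO. Those of the other classes did not overlap. At day 17 the same ratios were 0.701, 0.715, 0.683, 0.694 and 0.731. At day 25 they were 1.68 for H1, 1.302 for H2A, 1.51 for H2B, 1.36 for H3 and 1.68 for H4. In RNA from whole cultures, fewer cells in S phase and less histone mRNA in each cell cannot be told apart.

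Days 0 and 1 asked whether the genotypes differed before and just after induction. At day 0 no histone gene was called (limma, Benjamini-Hochberg adjusted p below 0.05), none had an unadjusted p below 0.05, and 0% of all genes tested were called in either direction. At day 1 no histone gene was called by this fit and 2 had an unadjusted p below 0.05, beside 0.216% of all genes called higher and 0.069% called lower. With voom on recovered reads none was called on either day, and within libraries of the same exon share 1 was called lower at day 1. The third pair of day 1, outside this fit, had 37 of the 63 genes lower in KO and 25 higher, with a median log2 difference of -0.08 and no replicate check.

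By day 3, histone genes of all 5 classes were lower in KO. Of 63 tested, 20 fell, none rose and 61 had a negative difference, with a median of -0.37 on the log2 scale against 0.02 for all genes tested. In the same comparison 4.16% of all genes were called lower and 7.77% higher. The calls were 3 of 6 H1, 5 of 16 H2A, 9 of 17 H2B, 1 of 11 H3 and 2 of 13 H4 genes.

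Among the linker histones, which bind DNA between nucleosomes, Hist1h1a had 195 and 217 RPKM in WT against 157 and 157 RPKM in KO at day 3, and fell by 0.39 ± 0.12 (SE, limma adjusted p = 0.046). Hist1h1d had 33.4 and 38.9 RPKM in WT against 27.3 and 25.4 RPKM in KO, a fall of 0.45 ± 0.12 (adjusted p = 0.018). KO libraries did not overlap WT libraries for either gene. Of the H2A genes, Hist1h2ab had 25.7 and 30.7 RPKM in WT against 20.1 and 18.4 RPKM in KO and fell by 0.54 ± 0.14 (adjusted p = 0.013). Hist1h2bl, an H2B gene, had 90.1 and 103 RPKM in WT against 72.3 and 63.96 RPKM in KO and fell by 0.50 ± 0.12 (adjusted p = 0.0071), the lowest adjusted p among the 63 genes on this day. The H4 gene Hist1h4f had 103 and 125 RPKM in WT against 83.7 and 72.8 RPKM in KO, a fall of 0.54 ± 0.15 (adjusted p = 0.019). For each of these 5 genes the KO libraries lay below both WT libraries.

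These calls were sensitive to single libraries. Without the second WT library of day 3, whose summed RPKM was the higher of the pair, 0 of the 63 genes were called lower, and 50 were called when only libraries of low exon share were fitted. The share of all genes called in those alternative fits is not given here. The fibroblast markers moved on the same day, with 7 of 9 tested higher in KO and none lower, and their sum was 16.5 to 18.1 RPKM in WT against 32.5 to 33.0 RPKM in KO. Their part in the histone difference was not tested.

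At day 9 few histone genes differed, and the direction was mixed. Of 63, 4 rose and 6 fell, with a median of -0.08, beside 1986 genes called higher and 1259 called lower among all tested (28% in either direction). Among the 6 were the linker histones Hist1h1c, with 69.3 and 71.03 RPKM in WT against 54.2 and 57.8 RPKM in KO, and Hist1h1d, which fell by 0.33 ± 0.11 and 0.35 ± 0.12 (limma adjusted p = 0.036 and 0.038). The H3 gene Hist1h3d had 20.3 and 19.4 RPKM in WT against 13.7 and 14.3 RPKM in KO and fell by 0.50 ± 0.12 (adjusted p = 0.0046). The largest rise was that of Hist1h2aa, an H2A gene known from the male germline, with 2.94 and 2.43 RPKM in WT against 7.32 and 4.84 RPKM in KO (1.13 ± 0.24, adjusted p = 0.0014). Leaving out 1 library gave between 1 and 11 genes called lower and between 1 and 4 called higher. The fibroblast markers moved on this day too, with 8 of 9 higher in KO and sums of 17.8 to 20.02 RPKM in WT against 36.8 to 41.9 RPKM in KO, and their part was not tested.

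At day 6, in the libraries as labelled, 11 histone genes were called higher and 3 lower in Dnmt1 KO, with a median of 0.13, beside 9% of all genes higher and 19% lower. The summed level was 2761 and 2948 RPKM in the libraries labelled WT and 3271 and 3148 RPKM in those labelled KO. Hist3h2a, an H2A gene on chromosome 11, had 12.7 and 13.1 RPKM in the libraries labelled WT and 18.4 and 18.9 RPKM in those labelled KO (0.53 ± 0.09, limma adjusted p = 0.00011). The 3 genes lower in the libraries labelled KO, Hist2h2ab, Hist2h2ac and Hist2h2bb, all lie in the cluster on chromosome 3. Since Dnmt1 and the fibroblast markers (8 of 9 lower in the libraries labelled KO) were also turned on this day, no direction is drawn from it.

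Histone genes were lower in KO at days 11 and 17 as well. At day 11, 37 of 63 histone genes fell in KO and none rose, with a median of -0.46 against 0.07 for all genes, while 12.7% of all genes were called lower and 23.2% higher. At day 17, 48 fell and 1 rose, with a median of -0.48 against 0.09 for all genes, while 11.7% of all genes were called lower and 29.3% higher. By class the falls were 5 of 6 H1, 10 of 16 H2A, 12 of 17 H2B, 8 of 11 H3 and 2 of 13 H4 genes at day 11, and 5, 11, 15, 9 and 8 at day 17. A difference between classes was not tested.

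Hist1h1c, a linker histone also expressed in cells that do not divide, showed the fall of lowest adjusted p at day 11. It had 274 and 272 RPKM in WT against 196 and 127 RPKM in KO, and fell by 0.79 ± 0.11 (limma adjusted p = 1.5e-05). At day 17 it had 191 and 172 RPKM in WT against 128 and 132 RPKM in KO (a fall of 0.48 ± 0.11, adjusted p = 0.0016). Hist1h1a had 734 and 586 RPKM in WT against 405 and 415 RPKM in KO at day 17 and fell by 0.68 ± 0.12 (adjusted p = 0.00016). In these libraries KO lay wholly below WT for both linker histones.

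Of the H2A genes, Hist3h2a fell by 0.61 ± 0.09 at day 11 and by 0.76 ± 0.09 at day 17, where it had 24.9 and 22.4 RPKM in WT against 13.2 and 14.5 RPKM in KO (limma adjusted p = 4.6e-07). Its neighbour on chromosome 11, the H2B gene Hist3h2ba, had 30.6 and 25.4 RPKM in WT against 15.3 and 12.1 RPKM in KO at day 17 and fell by 1.03 ± 0.12 (adjusted p = 4.6e-07). These 2 genes had the lowest adjusted p of the 63 on that day. Hist1h2bg, another H2B gene, had 71.7 and 62.8 RPKM in WT against 47.8 and 29.2 RPKM in KO at day 11, the largest fall called on that day at 0.84 ± 0.15 (adjusted p = 0.0002), whereas at day 17 its difference of -0.29 ± 0.15 was not called (adjusted p = 0.13). The abundant H2B gene Hist1h2bm had 389.9 and 316 RPKM in WT against 231 and 241 RPKM in KO at day 17, and fell by 0.57 ± 0.12 (adjusted p = 0.00049).

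The H3 gene Hist1h3e had 425 and 419.8 RPKM in WT against 364 and 228 RPKM in KO at day 11 (a fall of 0.55 ± 0.16, limma adjusted p = 0.0092). At day 17 it had 408 and 332 RPKM in WT against 239.7 and 263 RPKM in KO (a fall of 0.55 ± 0.16, adjusted p = 0.0076). Both KO libraries lay below both WT libraries on each day. Hist1h4k, the most abundant member, had 755 and 849 RPKM in WT against 863 and 580.4 RPKM in KO at day 11, so the genotypes overlapped and the difference of -0.18 ± 0.15 was not called (adjusted p = 0.37). At day 17 it had 1064 and 770.0 RPKM in WT against 614 and 679 RPKM in KO and fell by 0.49 ± 0.15 (adjusted p = 0.012). The 1 gene called higher at day 17 was Hist2h3c1, at 0.663 and 0.488 RPKM in WT against 1.09 and 1.16 RPKM in KO (0.87 ± 0.19, adjusted p = 0.00079).

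Single libraries carried part of both counts. Without the second KO library of day 11, whose sum was 5815 RPKM, 13 genes were called lower at day 11, and without the first KO library 55 were. When only the 4 libraries of day 11 were fitted, none was called. Within libraries of high exon share, 16 of 62 genes tested were called lower at day 11 and 25 at day 17. Within the other set 50 of 60 were called lower at day 3, so the order of the days by count depends on the libraries fitted. The share of all genes called in these narrower fits is not given here. Without the first WT library of day 17, 23 genes were called lower at day 17. At day 11, 5 of 9 fibroblast markers were higher and 1 lower in KO, with sums of 3.88 to 4.29 RPKM in WT against 3.83 to 4.65 RPKM in KO. The fibroblast sum at day 17 was 2.46 to 2.59 RPKM in WT against 13.8 to 14.4 RPKM in KO, of which Acta2 made 11.05 and 11.13 RPKM in the KO libraries, while Col1a1, Col1a2 and Col3a1 were all at or below 0.0492 RPKM in these 4 libraries. The part of these markers was not tested.

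**Figure D2:**
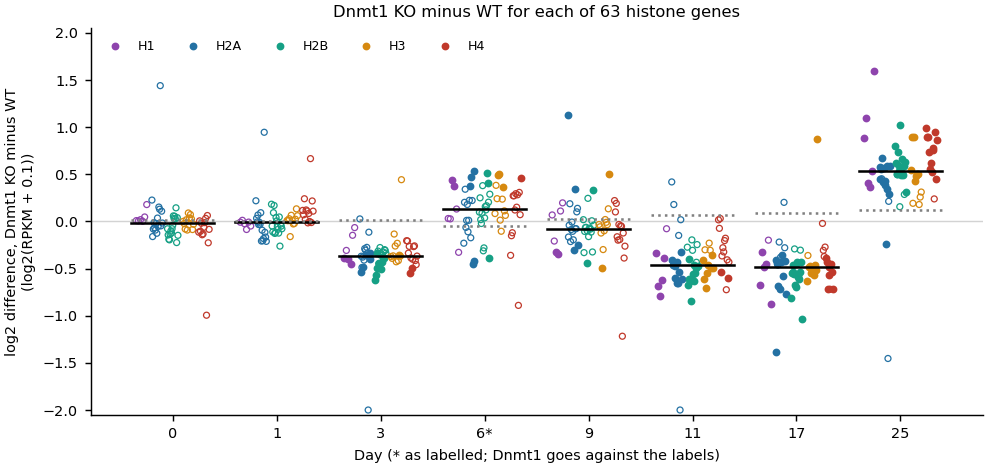
Difference between Dnmt1 KO and WT on the log2(RPKM + 0.1) scale for each of 63 histone genes (points, coloured by class) at each day, filled where the limma adjusted p is below 0.05, with the median of the histone genes (black line) and of all genes tested (dotted line). 2 points beyond 2 are drawn at the edge. The histone medians are -0.37 at day 3, -0.46 at day 11, -0.48 at day 17 and 0.53 at day 25.

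At day 25 the direction was the opposite. Of 63 histone genes, 52 rose in KO and 1 fell, with a median of 0.53 against 0.13 for all genes, while 39.8% of all genes were called higher and 26.2% lower. The rises took in 6 of 6 H1, 12 of 16 H2A, 15 of 17 H2B, 7 of 11 H3 and 12 of 13 H4 genes. Of the 63, 43 were called lower at day 17 and higher at day 25, a pattern of 4.05% of all genes tested. Lower at both days 11 and 17 and higher at day 25 were 27, beside 1.77% of all genes, and 14 were in addition lower at day 3, beside 0.742% of all genes.

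Hist1h1b, a linker histone of dividing cells, had 90.7 and 101 RPKM in WT against 215 and 195 RPKM in KO, and rose by 1.096 ± 0.12 (limma adjusted p = 2.6e-07). Hist1h1a had 269 and 317 RPKM in WT against 542 and 535 RPKM in KO and rose by 0.88 ± 0.12 (adjusted p = 3.9e-06). The largest rise of an H2B gene was that of Hist1h2bk, with 43.4 and 43.6 RPKM in WT against 90.6 and 86.6 RPKM in KO (1.02 ± 0.12, adjusted p = 3.6e-07). Hist1h4a and Hist1h4n led the H4 genes, the first with 61.4 and 74.5 RPKM in WT against 135 and 134 RPKM in KO (0.99 ± 0.22, adjusted p = 0.00047). Hist1h4n had 117 and 116 RPKM in WT against 221 and 229 RPKM in KO (0.95 ± 0.17, adjusted p = 5.6e-05), but 10.9% of its windows are unique. Hist1h3d, an H3 gene, had 7.28 and 6.99 RPKM in WT against 11.8 and 15.2 RPKM in KO (0.89 ± 0.12, adjusted p = 3.1e-06). For these 6 genes every KO library lay above both WT libraries.

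Hist1h2ak was the exception. This H2A gene had 41.2 and 38.9 RPKM in WT against 37.4 and 30.8 RPKM in KO, and fell by 0.24 ± 0.10 (limma adjusted p = 0.048), a call that was lost in 7 of the 10 alternatives listed further on and with single libraries left out. It was also called lower at days 3, 9, 11 and 17, and it was the only member called lower on all 5 of these days. Its step between the sets of libraries, the 1 place where levels are set across them, differed as well. At day 1 its level in the third WT library (high exon share) was 0.618 times the mean of the first 2 (low share), whereas the median ratio was 2.11 over 59 histone genes above 1 RPKM and 2.07 over 8448 genes above that level. Hist1h2ad, Hist3h2a, Hist1h2bg, Hist1h2bc and Hist3h2ba also had ratios below 1, and Hist1h2ao and Hist2h4 had the highest, at 4.37 and 4.77. The ratios in KO ran from 0.520 for Hist1h2ad to 5.40 for Hist1h2bq, with a median of 1.83.

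Other values moved with the day 25 result. The exon share was 44.7% and 45.2% in WT and 49.9% and 49.4% in KO. RPKM summed over all rows was 153164 and 157258 in WT and 198609 and 196484 in KO. When each library was scaled to that sum, 23 histone genes were called higher and 1 lower, beside 2125 of all genes higher and 5185 lower. Their median was then 0.19, where the median of all genes was -0.21. Relative to the median of all genes the histone median was 0.41 on either scale. This follows from the scaling itself, which shifts all genes of a library by nearly the same amount on the log2 scale. The fibroblast sums were 3.38 to 3.67 RPKM in WT against 2.92 to 3.26 RPKM in KO, so these markers were low in both. Of 11 ESC markers, 6 were higher and 3 lower in KO, and Nanog had 30.7 and 32.7 RPKM in WT against 155 and 144 RPKM in KO. The part of these values in the histone difference was not tested.

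**Figure D3:**
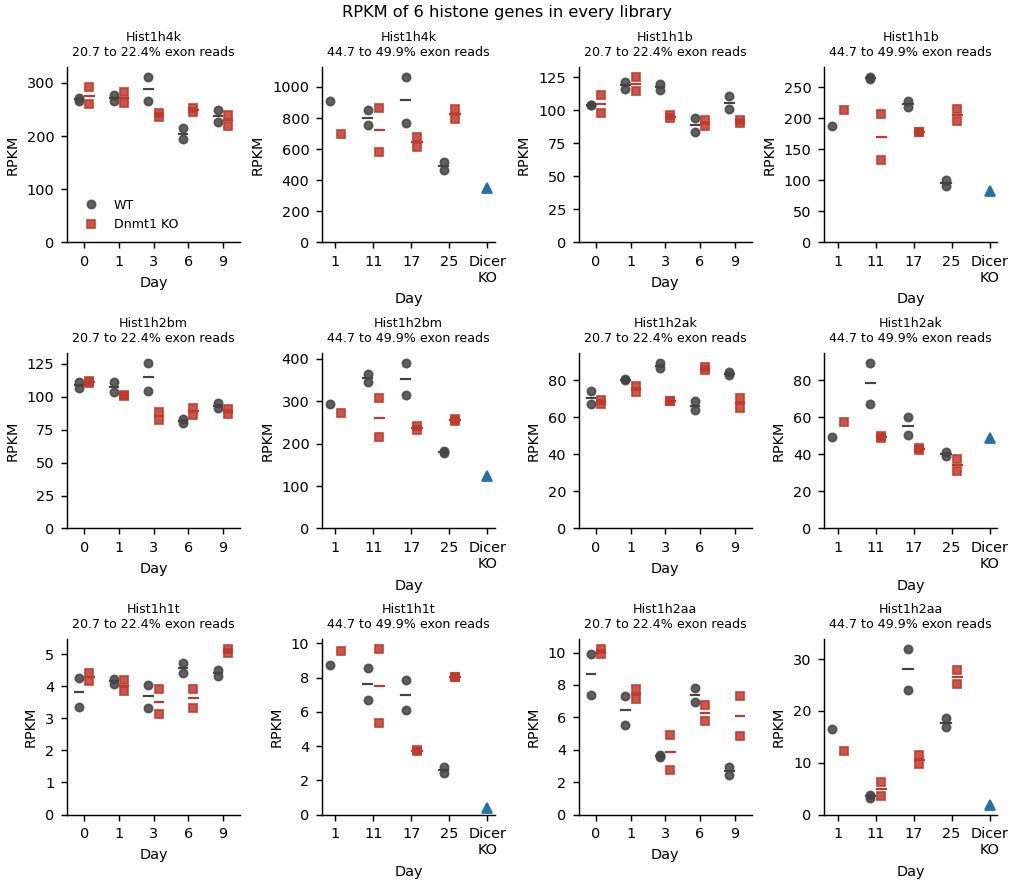
RPKM of 6 histone genes in every library by day, with separate axes for the libraries of low and high exon-read share, and horizontal lines at the mean of 2 libraries. Hist1h4k, Hist1h1b, Hist1h2bm and Hist1h1t are higher in KO (red squares) than in WT (grey circles) at day 25, Hist1h2ak is lower, and Hist1h2aa has 31.9 and 24.1 RPKM at WT day 17.

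The change with time in WT was taken between days of the same set of libraries, in the fit over all 32 libraries. From day 0 to day 9, 1 histone gene rose and 5 fell, with a median of -0.13 on the log2 scale, beside 8.63% of all genes called higher and 7.74% lower. When only the libraries of low exon share were fitted, 3 rose and 21 fell, and the share of all genes called in that fit is not given here. Hist1h3d was the gene that rose, from 14.2 and 11.6 RPKM to 20.3 and 19.4 RPKM (0.63 ± 0.12, limma adjusted p = 0.002). Hist3h2ba fell from 15.6 and 15.9 RPKM to 11.11 and 10.1 RPKM, without overlap. From day 11 to day 25, 54 fell and 1 rose, with a median of -0.96 against 0.01 for all genes, beside 33.6% of all genes called lower and 35% higher. The falls took in 6 of 6 H1, 11 of 16 H2A, 14 of 17 H2B, 10 of 11 H3 and 13 of 13 H4 genes. Hist1h3d fell from 33.8 and 26.9 RPKM to 7.28 and 6.99 RPKM, a change of -2.06 ± 0.12 (limma adjusted p = 1.2e-11). Hist1h1b fell from 267 and 264 RPKM to 90.7 and 101 RPKM (-1.47 ± 0.12, adjusted p = 2e-09), and Hist1h4k from 755 and 849 RPKM to 466 and 515 RPKM (-0.71 ± 0.15, adjusted p = 0.00024). Hist1h4m was called as well (-4.92 ± 1.54, adjusted p = 0.0076), but this rests on its 1 high library of day 11. With each library scaled to its summed RPKM, 50 were called lower and 1 higher, beside 2371 of all genes lower and 5814 higher.

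Whether the KO effect differed between days 11 and 25 was tested directly. The effect of day 25 minus that of day 11 was called higher for 56 of 63 histone genes and lower for none, with a median of 0.97 against 0.05 for all genes, beside 30% of all genes called higher and 27.6% lower. Among the called genes it was largest for Hist1h1b (1.78 ± 0.18, limma adjusted p = 1.2e-07), Hist1h1t (1.67 ± 0.26, adjusted p = 2.4e-05), Hist1h3d (1.60 ± 0.18, adjusted p = 3.8e-07), Hist1h3b (1.51 ± 0.21, adjusted p = 5e-06) and Hist1h2bg (1.43 ± 0.21, adjusted p = 1.4e-05). Every one of the 63 values was above 0, including Hist1h2ak (0.41 ± 0.15, adjusted p = 0.02). WT libraries of days 11 and 25 enter this test, the WT change with time and the KO differences of both days, so these results share samples.

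Hist1h1t, Hist1h2aa and Hist1h2ba are known from the testis. They were detected in these cells at lower levels than the abundant members of their classes. Hist1h1t, the testis linker histone, lay between 3.14 and 5.16 RPKM in the 20 libraries of low exon share. At day 25 it had 2.78 and 2.43 RPKM in WT against 8.06 and 8.04 RPKM in KO, a rise of 1.59 ± 0.19 (limma adjusted p = 3.7e-07), the largest of the members. At day 17 it had 7.88 and 6.13 RPKM in WT against 3.73 and 3.74 RPKM in KO and fell by 0.88 ± 0.19 (adjusted p = 0.0007).

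Hist1h2aa and Hist1h2ba lie head to head on chromosome 13, at chr13:24026331-24026720 on the plus strand and chr13:24025637-24026025 on the minus strand. Hist1h2aa, an H2A gene, went its own way with time. Its WT level was 9.94 and 7.39 RPKM at day 0 and 2.94 and 2.43 RPKM at day 9, a change of -1.65 ± 0.24 (limma adjusted p = 0.00021). In the other set it was 3.86 and 3.26 RPKM at day 11, 31.9 and 24.1 RPKM at day 17 and 16.8 and 18.7 RPKM at day 25, and it was the 1 member that rose in WT from day 11 to day 25 (2.29 ± 0.24, adjusted p = 5.3e-08). KO had 11.4 and 9.81 RPKM at day 17 (a fall of 1.38 ± 0.24, adjusted p = 0.0001) and 25.16 and 27.9 RPKM at day 25 (a rise of 0.57 ± 0.24, adjusted p = 0.043). Hist1h2ba, its H2B neighbour, had 36.0 and 25.3 RPKM in WT against 17.7 and 16.6 RPKM in KO at day 17 (a fall of 0.81 ± 0.20, adjusted p = 0.0021). At day 25 it had 17.21 and 18.4 RPKM in WT against 31.3 and 31.0 RPKM in KO (a rise of 0.80 ± 0.20, adjusted p = 0.0012). Both genes were lower in KO at day 17 and higher at day 25, with no overlap between the libraries.

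The single Dicer KO library, from cells that lack the nuclease that makes small RNAs, was set beside the 7 WT libraries of the same exon-share set, without a test. Its histone sum of 4248 RPKM was below every one of them (4856 to 10713 RPKM). Of the 63 genes, 37 (58.7%) were below all 7 WT libraries, 26 (41.3%) within their range and 0 above, compared with 26.9%, 42.1% and 30.9% of all genes tested. Hist1h4k had 351 RPKM, beside a WT range of 466 to 1064 RPKM. Hist1h1t had 0.384 RPKM, beside a WT range of 2.43 to 8.73 RPKM, and Hist1h2aa 1.79 RPKM, beside 3.26 to 31.9 RPKM. Hist1h2ak, at 48.6 RPKM, was within the WT range. The fibroblast markers summed to 179.6 RPKM in this library, of which Acta2 made 118 RPKM, so it also differs from WT in these markers, and their part was not tested.

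Genes of the same pathway were read from lists beside the members. Of 10 tested histone variants, which are made outside S phase or from mRNAs with a poly(A) tail, 3 fell and 2 rose at day 11, 2 fell and 5 rose at day 17, and 2 fell and 6 rose at day 25. H2afx, the variant whose mRNA also carries the stem-loop letters, had 109 and 107 RPKM in WT against 96.03 and 71.2 RPKM in KO at day 11 (a fall of 0.38 ± 0.09, limma adjusted p = 0.0032), and it fell at days 3, 9 and 17 as well. At day 25 H2afx was not called, with 72.4 and 75.1 RPKM in WT against 82.0 and 77.2 RPKM in KO. H2afz, the variant found at promoters, had 334 and 267 RPKM in WT against 193 and 196 RPKM in KO at day 17 (a fall of 0.62 ± 0.10, adjusted p = 5.7e-05) and rose by 0.69 ± 0.10 at day 25 (adjusted p = 7.7e-06). H3f3a and H3f3b encode the same H3.3 protein and moved apart at day 25, H3f3a higher by 0.79 ± 0.10 and H3f3b lower by 0.65 ± 0.11 (adjusted p = 1.7e-06 and 3.3e-05). H2afy2, a macroH2A gene, was called higher at days 3, 9, 11, 17 and 25.

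The factors that transcribe, process and degrade histone mRNA moved in both directions, as did all genes tested. Of 22 tested, 1 rose and 1 fell at day 3, 4 rose and 1 fell at day 11, 5 rose and 6 fell at day 17 and 8 rose and 7 fell at day 25. On that last day 39.8% of all genes were called higher and 26.2% lower. A difference of this list from all genes was not tested. Slbp had 22.8 and 17.9 RPKM in WT against 20.2 and 19.1 RPKM in KO at day 17, where it was not called, and 15.1 and 16.0 RPKM in WT against 25.23 and 24.3 RPKM in KO at day 25, a rise of 0.67 ± 0.11 (limma adjusted p = 1.4e-05). Casp8ap2, whose product acts at histone gene loci, had 7.52 and 7.43 RPKM in WT against 13.5 and 18.5 RPKM in KO at day 25 (a rise of 1.07 ± 0.10, adjusted p = 1.4e-08). Upf1, which takes part in histone mRNA decay, fell by 1.44 ± 0.22 at day 25 (adjusted p = 1.1e-05). Npat, the coactivator of histone gene transcription, was called at none of the 8 days.

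Of 25 genes of S phase and DNA replication, 3 fell and none rose at day 3, 2 fell and 9 rose at day 11, 4 fell and none rose at day 17, and 5 fell and 18 rose at day 25. Their medians were -0.07, 0.17, -0.08 and 0.50 on these days, beside -0.37, -0.46, -0.48 and 0.53 for the histone genes. Mcm6, a subunit of the replicative helicase, had 49.99 and 52.6 RPKM in WT against 98.9 and 98.8 RPKM in KO at day 25 (a rise of 0.95 ± 0.07, limma adjusted p = 1.8e-10). Cdt1 and Rrm2 fell by 1.38 ± 0.19 and 0.72 ± 0.09 on the same day (adjusted p = 3.9e-06 and 5.8e-07). Ccna2, cyclin A2 of S phase and G2, fell by 0.28 ± 0.08 at day 3 and by 0.48 ± 0.08 at day 11 (adjusted p = 0.025 and 0.00011) and rose by 0.53 ± 0.08 at day 25 (adjusted p = 1.2e-05). Of 10 histone chaperones, 1 fell and 4 rose at day 11, 3 fell and 2 rose at day 17 and 3 fell and 4 rose at day 25. For this list and the S-phase genes, the shares of all genes called are those given with the histone variants. A difference from these shares was not tested. Malat1, another RNA that ends without a poly(A) tail, had 331 and 323 RPKM in WT against 91.7 and 96.2 RPKM in KO at day 25, a fall of 1.80 ± 0.19 (adjusted p = 9.2e-08), the opposite direction to the histone genes. Neat1, tested beside Malat1, also fell on that day, by 0.59 on the log2 scale. It rose in KO at days 3, 11 and 17 (0.94, 0.70 and 0.92), on which Malat1 was not called. Of 6 RNAs listed as ending without poly(A), only these 2 were in the expression table.

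**Figure D4:**
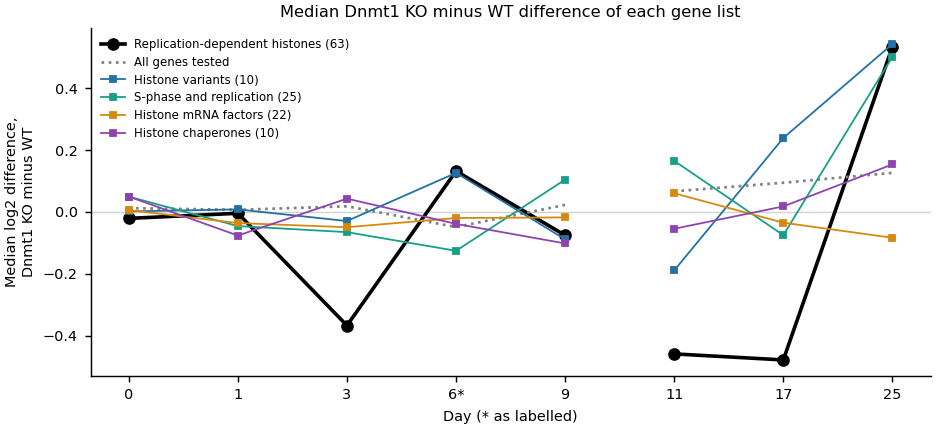
Median log2 difference between Dnmt1 KO and WT at each day for the histone genes (black), 4 lists of related genes (colours, number of genes tested in brackets) and all genes tested (dotted), with lines broken between the 2 sets of libraries. The histone median is below the other lists at days 3, 11 and 17 and near those of the histone variants and S-phase genes at day 25.

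The counts were also taken by sequence uniqueness. Of 43 tested genes with at least 50% unique windows, 15 fell at day 3, 27 at day 11 and 36 at day 17, and 39 rose at day 25, with medians of -0.36, -0.43, -0.48 and 0.55. Of 20 genes below that share, 5, 10 and 12 fell and 13 rose on the same days, with medians of -0.37, -0.47, -0.46 and 0.48. The 5 tested genes without a stem-loop match in the window searched gave medians of -0.43 at day 17 and 0.59 at day 25, and the 58 with a match -0.48 and 0.53.

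**Figure D5:**
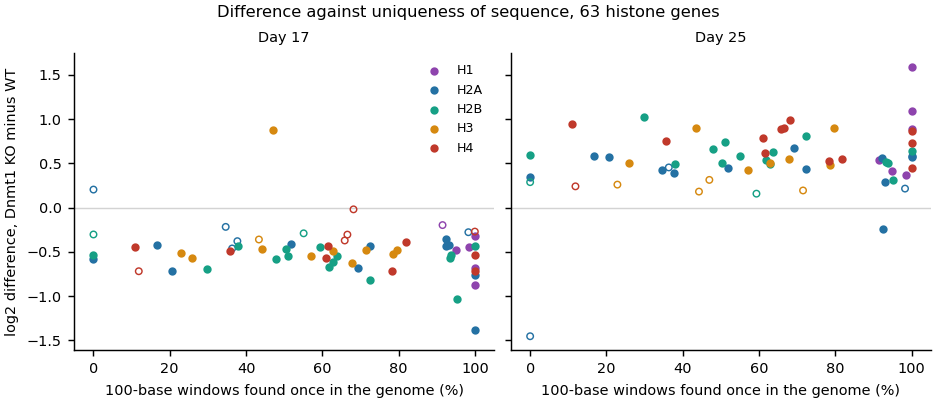
Difference between Dnmt1 KO and WT on the log2 scale at days 17 (left) and 25 (right) against the percentage of 100-base exon windows that occur once in the genome, for 63 histone genes coloured by class and filled where called. Falls at day 17 and rises at day 25 are spread over the whole range of uniqueness, and 39 of 43 genes with at least 50% unique windows were called higher at day 25.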

How the data were processed

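RNA-seq was made from rRNA-depleted total RNA of 17 WT, 17 Dnmt1 KO and 1 Dicer KO library. The authors trimmed reads with Trim Galore (0.3.5), aligned them with TopHat2 (2.0.11) to NCBIM37, with versions as in the submitters' processing notes, and, per the methods section, discarded reads with a mapping quality under 20 and quantified genes in SeqMonk. The deposited values are linear RPKM, although the methods speak of log2 values scaled to library size only. The authors' differential calls were not used. Rows were matched to an NCBIM37 annotation (99.9%), and 125 rows share a symbol with another.

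RPKM + 0.1 was log2-transformed and fitted with limma 3.58.1 in R 4.3.3, as group means over 32 libraries with the trend option. Genes above 1 RPKM in at least 2 of these were kept, and p-values were adjusted by Benjamini-Hochberg over all 11594. Differences are of log2(RPKM + 0.1). This scale makes changes of low genes look smaller, and ± is the SE. Being pooled over all groups, the SE of a gene is the same for the KO minus WT difference of every day. The third pair of day 1 was left out of the fit because its exon-read share matches the other set. Tables and figures were made with Python 3.11.15, pandas 2.3.3 and matplotlib 3.10.9. In data simulated for day 9 (10198 genes), 97.94% of 194 changed genes were recovered with 1.042% false calls. The effect sizes and the spread set for these data are not given here. Recovery at the other days, and for differences of the size called in the histone genes, was not tested. Read numbers were recovered from the steps of low RPKM values, and limma voom was run on them as an alternative.

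The histone genes and gene lists were chosen with earlier results of these data known. Named are the highest gene of each class, up to 5 called rises and falls per comparison, Hist1h1t, Hist1h2aa and Hist1h2ba, genes called in 1 direction on at least 3 of days 3, 9, 11, 17 and 25, Dnmt1, and examples of the lists. Alternatives covered the libraries fitted, a replicate block, the pseudocount, the filter, the scaling, voom and leaving out each library.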

Additional observations from a re-analysis of the deposited data

Results flagged for a closer look

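The effect of Dnmt1 KO at day 25 was higher than that at day 11 for 56 of 63 histone genes, as tested by the limma contrast of the 2 differences. The libraries of the 2 days are separate. Of the genes named in the report, this difference of effects was 1.78 on the log2 scale for Hist1h1b, 1.67 for Hist1h1t, 1.6 for Hist1h3d, 1.51 for Hist1h3b and 1.43 for Hist1h2bg.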

How the results depend on the processing

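No call reversed direction. In 2327 comparisons of 56 values of 39 named genes, 2081 kept the call, 246 lost it and 0 reversed. These values were chosen as called in the main fit, and fits that leave out 1 library share most libraries with it. The totals are therefore no independent check. With all 34 libraries 35 of the 56 calls were lost, without the filter 13 of 56, and scaled to summed RPKM 0 of 56. Counts are of the 63 histone genes called lower or higher in KO, unless WT is named. They are given without the share of all genes called in the same fit. The count of genes lower at day 3 was 50 within the same exon-read share, 48 with only the groups compared, 34 scaled to summed RPKM, 13 without the day 6 libraries (chosen after seeing the data), 9 without the filter and 0 with all 34 libraries. At day 6 as labelled (11 higher, 3 lower), it was 26 and 7 within the same share, 27 and 8 with only the groups compared, 0 and 0 with all 34 libraries, 14 and 1 with median centring and 15 and 4 by summed RPKM. At day 9 (4 higher, 6 lower), 14 were lower within the same share, 8 were higher and 17 lower with only the groups compared, 0 and 0 with all 34, 1 and 1 without the filter, 4 and 10 by summed RPKM and 1 and 6 with median centring. Also at day 9, 1 was higher without day 6, 2 with pseudocount 1 and 2 with the replicate block. At day 11 the lower count was 16 within the same share, 0 with only the groups compared and 4 with all 34 libraries, and at day 17 it was 25 within the same share and 4 with all 34. At day 25, 23 were higher by summed RPKM and 12 with all 34 libraries, and the 1 gene lower became 0 within the same share, with only the groups compared, all 34 libraries, no filter, median centring, voom and without day 6. At day 1, 1 was lower within the same share. For WT from day 0 to 9, 3 rose and 21 fell within the same share, 3 and 27 with only the groups compared, 0 and 0 with all 34 libraries, 3 fell without the filter and 2 rose by summed RPKM. With all 34 libraries 31 fell in WT from day 11 to 25 and 17 had a higher effect at day 25 than at day 11. By construction, all 34 libraries put both exon-read sets into the day 1 groups. The cause of the other changes was not tested.

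Leaving out 1 library gave 0 to 41 lower at day 3, 1 to 19 higher and 0 to 4 lower at day 6, 1 to 4 higher and 1 to 11 lower at day 9, 0 to 1 higher and 13 to 55 lower at day 11, 1 to 2 higher and 23 to 55 lower at day 17, 39 to 53 higher and 0 to 1 lower at day 25, 1 to 2 higher and 2 to 10 lower for WT from day 0 to 9, 49 to 58 lower for WT from day 11 to 25 and 52 to 58 for the difference of effects. A group left with 1 library is assumed to vary like the others.

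No clear pairing by replicate number was seen, with deviations of same-numbered libraries correlated between -0.154 and 0.26. With 2 libraries in a group this cannot show that the samples were unpaired. With the replicate block 19 were lower at day 3, 34 at day 11 and 47 at day 17, and 52 were higher at day 25. Genes of 3 reads or fewer cannot be read at this depth.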
